A study of Mus musculus with 5 samples.

Results

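Matrix proteoglycans are secreted core proteins that carry sulphated sugar chains or are close relatives of proteins that do. Of 6 listed genes, 5 had ratios on 4 or more of the 5 arrays and were kept, among 10081 genes and unnamed features measured that well. They are versican (Vcan), osteoglycin (Ogn), decorin (Dcn), biglycan (Bgn) and fibromodulin (Fmod). Lumican (Lum) had ratios on 3 arrays, just outside that limit, and its values are given as a description. The set was chosen from ratios of the same comparison that is described here, so the members' own ratios are given without a test.

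The lungs came from bleomycin-treated 129svJ mice. Bleomycin is an antibiotic that cuts DNA and is given to mice as a model of lung injury and scarring, and 129svJ is an inbred strain. Each of the 5 arrays set amplified lung RNA of 1 bleomycin-treated mouse against amplified RNA pooled from lungs of control 129svJ mice, and that pool was common to all arrays. The labels state no dose, route, time after treatment, age or sex, and no number of control mice for the pool. The labels name the bleomycin mouse in channel 1 and the pool in channel 2 but give neither the dyes nor the numerator, so the direction of the ratios cannot be settled. Values are therefore given by their side of 0, and a value above or below 0 does not say whether the bleomycin mouse or the pool held more of that RNA.

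Versican is a large chondroitin sulphate proteoglycan that binds hyaluronan and forms a loose, hydrated matrix around moving and dividing cells. The other members are small leucine-rich proteoglycans, whose curved repeat domains bind collagen fibrils and set fibril thickness and spacing. Decorin and biglycan carry chondroitin or dermatan sulphate and also bind TGF-beta, fibromodulin and lumican carry keratan sulphate, and osteoglycin, also called mimecan, carries keratan sulphate in the cornea. In lung these proteins lie in the adventitia of airways and vessels, in the pleura and in the alveolar interstitium, and fibroblasts make most of them.

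The members lay on both sides of 0. Ogn and Dcn lay above 0, and Fmod, Bgn and Vcan below it. Within each member all 5 mice were on 1 side, as were all measured arrays for 57.3% of all genes. All 5 members also passed the threshold applied to all genes (adjusted p under 0.05, limma with Benjamini-Hochberg adjustment), where 49.6% of the 10081 passed, 23.9% below 0 and 25.8% above it. Since this comparison chose the members, nothing is read from these counts.

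**Figure D1:**
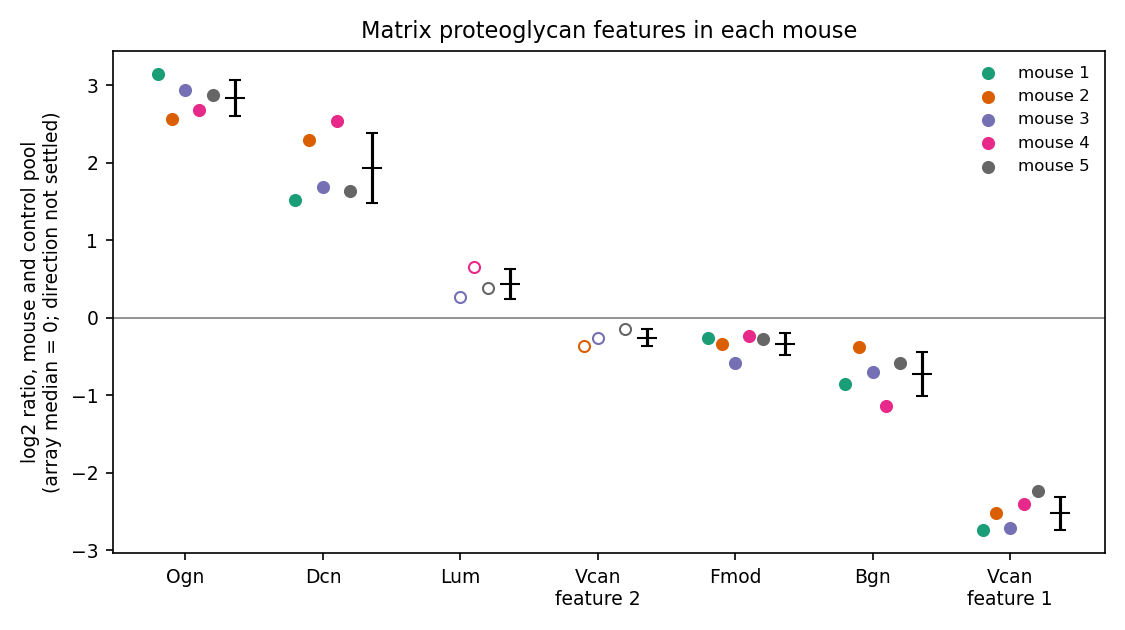
Log2 ratio of each mouse against the control pool (vertical axis, array median at 0) for every feature of the listed genes. Colours mark mice 1 to 5, filled points are features kept by the rule, open points are features with ratios on 3 arrays, and the bar beside each set is the mean ± SD over the arrays with a ratio; Ogn stands highest at 2.84 and the kept Vcan feature lowest at −2.52, while the other Vcan feature stands at −0.26.

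Osteoglycin stood farthest above 0. The log2 ratio of Ogn was 3.15, 2.56, 2.94, 2.67 and 2.88 in mice 1 to 5. Its mean was 2.84 ± 0.23 (SD, n = 5 mice), a 7.15-fold difference between mouse and pool if the deposited values are log2 ratios. All 5 mice were thus far from 0, with mouse 2 the lowest and mouse 1 the highest. Within the arrays, Ogn had the highest ratio of all genes in mice 1 and 5, the second place in mouse 3, rank 5 in mouse 4 and rank 9 in mouse 2, of between 9586 and 9867 genes per array.

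Decorin, the small proteoglycan that coats collagen fibrils and holds TGF-beta, lay above 0 with more spread between mice. The log2 ratio of Dcn was 1.52, 2.29, 1.69, 2.54 and 1.64 in mice 1 to 5, with a mean of 1.93 ± 0.45 (SD, n = 5; 3.82-fold). Mice 2 and 4 were high and the other 3 formed a lower group. This SD was larger than that of 95.6% of all genes, whose median SD was 0.156. In rank from the top, Dcn held place 11 in mouse 4 and place 20 in mouse 2, but 123, 91 and 63 in mice 1, 3 and 5.

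Versican stood on the other side. The kept Vcan feature had log2 ratios of −2.74, −2.52, −2.71, −2.41 and −2.23 in mice 1 to 5, with a mean of −2.52 ± 0.21 (SD, n = 5; 5.74-fold). Mice 1 and 3 were farthest from 0 and mouse 5 was nearest, and on every array Vcan was among the 34 lowest genes, reaching rank 8 from the bottom in mouse 3. A further feature assigned to Vcan had ratios only in mice 2, 3 and 5, at −0.37, −0.26 and −0.14 (mean −0.26 ± 0.11, n = 3; 1.19-fold). Both features lay below 0, but in those 3 mice they differed by more than 2 log2 units, far beyond the spread of either. Averaging both, as happens when features on at least 3 arrays are kept, moved the Vcan mean to −1.85. The large value for versican therefore rests on 1 feature, and why the features differ was not tested.

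Biglycan, the closest relative of decorin, lay on the opposite side from it. The log2 ratio of Bgn was −0.86, −0.38, −0.69, −1.14 and −0.58 in mice 1 to 5, with a mean of −0.73 ± 0.29 (SD, n = 5; 1.66-fold). Mouse 4 was the lowest and mouse 2 the nearest to 0. Mouse 4, where Bgn was lowest, was also the mouse with the highest Dcn, and the difference of Dcn minus Bgn was 3.68 there against 2.22 to 2.67 in the other mice (mean 2.66 ± 0.59, n = 5). Such a difference is taken within an array and does not depend on how the array was centred.

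Fibromodulin, which binds collagen at a site shared with lumican and guides fibril assembly, stood nearest to 0. The log2 ratio of Fmod was −0.26, −0.34, −0.59, −0.23 and −0.28 in mice 1 to 5, with a mean of −0.34 ± 0.15 (SD, n = 5; 1.26-fold). Mouse 3 was the lowest, and the other 4 mice lay close together. Of all genes, 66.4% had means nearer to 0 than Fmod, against 88.5% for Bgn and more than 99% for Dcn, Vcan and Ogn. Lum, outside the rule, had ratios of 0.27, 0.65 and 0.39 in mice 3, 4 and 5 (mean 0.43 ± 0.20, n = 3) and none in mice 1 and 2.

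From high to low the order of the mean ratios was Ogn, Dcn, Fmod, Bgn and the kept Vcan feature, and it held in every mouse. Each mean step was larger than its SD over the mice, but the steps were uneven. Ogn exceeded Dcn by 0.90 ± 0.66 on the log2 scale (SD, n = 5), but by only 0.27 in mouse 2 and 0.13 in mouse 4. The ranges of Fmod and Bgn overlapped between mice, and Bgn lay below Fmod by 0.04 in mouse 2 and by 0.91 in mouse 4 (mean difference of Bgn minus Fmod −0.39 ± 0.36). The kept Vcan feature stood clear of Bgn, with a difference of −1.79 ± 0.34. By the other Vcan feature neither that gap nor the order held. It stood at −0.37, −0.26 and −0.14 in mice 2, 3 and 5, above Bgn in each and above Fmod in mice 3 and 5. The widest gap, the kept Vcan feature minus Ogn, was −5.36 ± 0.38 and ranged from −5.89 in mouse 1 to −5.08 in mice 2 and 4. These are differences between ratios, and the arrays do not say which of these RNAs was more abundant.

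**Figure D2:**
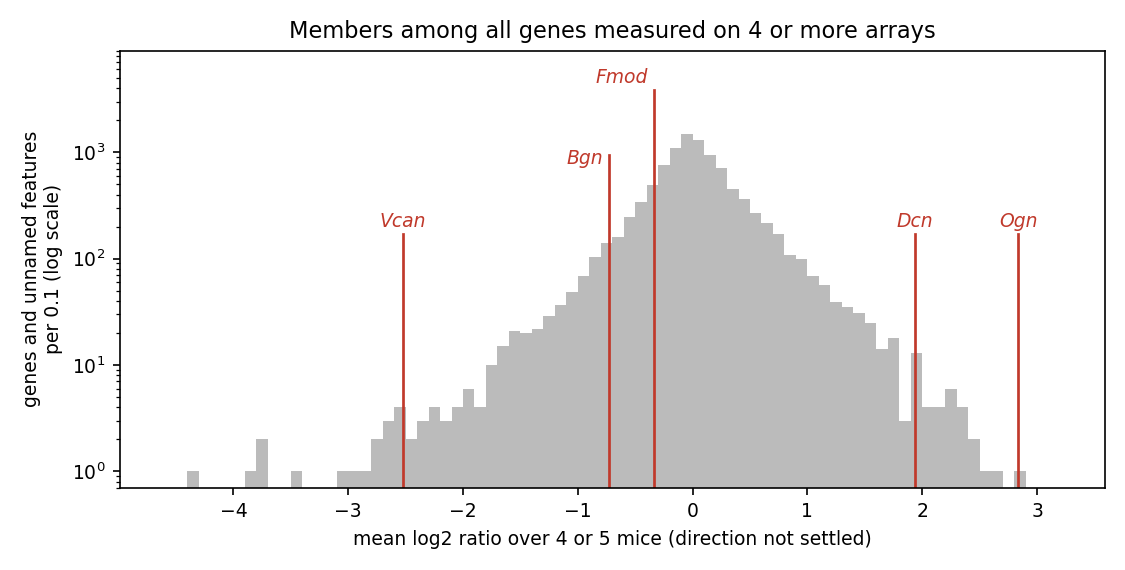
Number of genes and unnamed features (vertical axis, log scale) by mean log2 ratio over the 4 or 5 arrays with a ratio (horizontal axis, bins of 0.1), with red lines at the means of the 5 members. Ogn is the highest mean of all 10081, Dcn has rank 32 from the top, Vcan has rank 17 from the bottom, and Bgn and Fmod stand in the body of the distribution.

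The genes whose 5 ratios came nearest to a member's were taken by the root mean square difference over the 5 mice, among 7436 named genes with all 5 ratios. Nearest to Ogn were the tetraspanin Tspan13 (difference 0.36), the surfactant protein gene Sftpa1 (0.51) and the endothelial adhesion gene Pecam1 (0.56). Nearest to Vcan were the macrophage chemokine Ccl3 (0.26), the complement gene C1qb (0.27) and the mitochondrial gene Tamm41 (0.31). Nearest to Dcn were Ifngr1, the interferon-gamma receptor chain (0.26), the phosphatase Dusp1 (0.26) and Fbxo3 (0.27). Those 3 shared the pattern of Dcn over the mice in part. Dusp1 stood at 2.46 and 2.39 in mice 2 and 4 and at 1.55 and 1.81 in mice 1 and 5, but mouse 3, at 2.20, was not low as it was for Dcn. Nearest to Bgn were the translation factor subunit Eif3i (0.061), Rasl2-9 and Kcnn4, and to Fmod Ypel1 (0.064), Snord123 and Coro1a. Far from 0 few genes exist, so distances are larger there, and all arrays share the pool.

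Small leucine-rich proteoglycan genes lie in clusters, and the neighbours of the members did not share 1 ratio. On mouse chromosome 13 the RefSeq table places Ecm2, Aspn, Omd and Ogn next to each other in that order, with 0 other protein-coding genes between them. Their mean log2 ratios increased along that order, from 0.06 ± 0.11 (n = 5) for Ecm2 through 0.55 ± 0.26 (n = 4) for Aspn and 1.41 ± 0.33 (n = 5) for Omd to Ogn. Omd, osteomodulin, a keratan sulphate proteoglycan of mineralising tissue, had ratios of 0.90, 1.58, 1.64, 1.67 and 1.26 in mice 1 to 5 (2.66-fold; adjusted p = 0.000159, limma). With the pool counted as 1 control mouse that varies like the bleomycin mice, a setting in which 5.09% of all genes passed, the adjusted p of Omd was 0.0432 (limma). Omd was lowest in mouse 1, the mouse in which Ogn was highest, so the pair did not vary together over the mice. Aspn, asporin, which inhibits TGF-beta, had ratios of 0.81, 0.30, 0.36 and 0.72 in mice 1, 3, 4 and 5 (adjusted p = 0.007, limma), but passed neither the unmoderated test (adjusted p = 0.0571) nor that with the pool as 1 mouse (adjusted p = 0.255). Ecm2, an extracellular relative of decorin, did not pass (adjusted p = 0.38, limma). In the gene order of the RefSeq table, the measured genes listed next before and after this cluster did not pass. They were Cenpp at −0.17 ± 0.08 and Nol8 at −0.01 ± 0.11 (adjusted p = 0.0605 and 0.915, limma). Neighbours here and below were taken from that order alone, which does not show whether genes overlap.

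The clusters of Dcn and Fmod were less fully measured. On chromosome 10, Dcn, Lum, Kera and Epyc follow each other. Dcn was the only gene of that row measured on all 5 arrays, and the means after it were 0.43 for Lum, 0.57 for Kera in mouse 1 alone, and 0.11 ± 0.17 (n = 4; adjusted p = 0.308, limma) for Epyc. Kera encodes keratocan of the cornea and Epyc encodes epiphycan of cartilage. On chromosome 1, Optc stood at −0.14 ± 0.17 (n = 5; adjusted p = 0.156, limma) beside Fmod at −0.34. Prelp, which lies between them, was not matched to a feature. The measured genes next to these clusters were Btg1 and Ccer1 on chromosome 10, which did not pass, and Zc3h11a at 0.48 ± 0.35 and Btg2 at 0.62 ± 0.27 on chromosome 1 (n = 5), which passed above 0, on the other side from Fmod (adjusted p = 0.0177 and 0.00237, limma). Vcan lies on chromosome 13 as well, with 281 protein-coding genes between it and Ogn, and Bgn lies on the X chromosome. Beside Vcan, Edil3 stood at −0.21 ± 0.17 (n = 4) and did not pass, and Xrcc4 passed above 0 at 0.40 ± 0.15 (n = 5; adjusted p = 0.00291, limma). Beside Bgn, Trex2 passed below 0 at −0.23 ± 0.13 (n = 4) and Pnck above 0 at 0.19 ± 0.13 (n = 5; adjusted p = 0.0394 and 0.0384, limma).

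**Figure D3:**
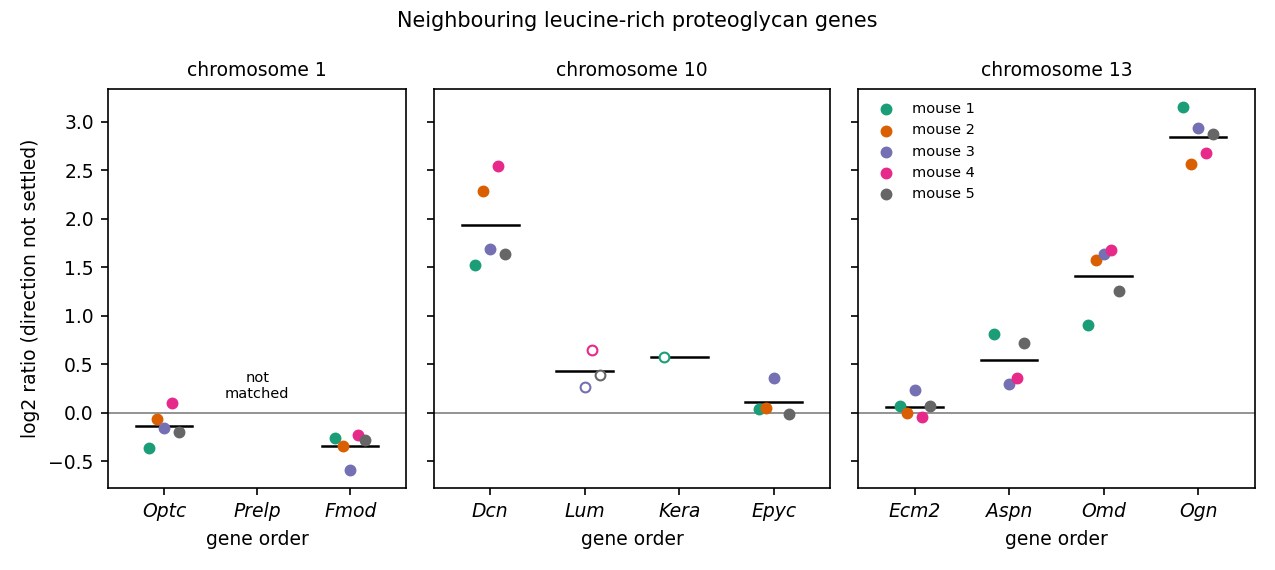
Log2 ratio per mouse (points coloured by mouse; open where a gene had ratios on fewer than 4 arrays) and mean (black line) for neighbouring small leucine-rich proteoglycan genes in their order on chromosomes 1, 10 and 13. On chromosome 13 the means climb from 0.06 for Ecm2 to 2.84 for Ogn, and on chromosome 10 Dcn stands above the genes that follow it.

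Upstream sequences from the RefSeq promoter table (GRCm38.p6) are shown to set the genes of the chromosome 13 cluster beside the members below 0. No test compared them. Each line holds the 120 bases just before the annotated start, 5′ to 3′ on the gene's strand. Capitals mark matches, on either strand, to TATAAA, to the AP-1 sequence TGANTCA, to the GC box GGGCGG, to the CCAAT box CCAAT or to the TEAD sequence CATTCC. The chromosome 13 cluster is at chr13:49607895-49608014 (+ strand), chr13:49582342-49582461 (+ strand), chr13:49544323-49544442 (+ strand) and chr13:49504690-49504809 (+ strand), and the members below 0 are at chr13:89742513-89742632 (- strand), chrX:73483481-73483600 (+ strand) and chr1:134037134-134037253 (+ strand).
Ogn: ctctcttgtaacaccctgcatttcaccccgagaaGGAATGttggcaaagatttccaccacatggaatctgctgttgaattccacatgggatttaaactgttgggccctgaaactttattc
Omd: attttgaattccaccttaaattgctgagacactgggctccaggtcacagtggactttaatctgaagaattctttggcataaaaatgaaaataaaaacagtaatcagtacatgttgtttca
Aspn: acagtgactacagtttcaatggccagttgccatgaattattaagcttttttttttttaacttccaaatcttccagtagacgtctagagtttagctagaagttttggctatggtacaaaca
Ecm2: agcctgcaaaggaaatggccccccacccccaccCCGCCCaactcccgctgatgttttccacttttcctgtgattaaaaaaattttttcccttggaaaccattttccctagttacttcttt
Vcan: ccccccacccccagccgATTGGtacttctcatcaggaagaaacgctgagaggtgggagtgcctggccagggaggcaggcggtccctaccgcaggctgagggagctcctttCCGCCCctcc
Bgn: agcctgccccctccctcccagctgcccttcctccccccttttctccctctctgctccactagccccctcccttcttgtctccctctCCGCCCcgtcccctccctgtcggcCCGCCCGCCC
Fmod: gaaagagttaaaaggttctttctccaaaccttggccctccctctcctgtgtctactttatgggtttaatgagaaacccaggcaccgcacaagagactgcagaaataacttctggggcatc
Over the 250 bases before the start, the G and C content was 42% for Ogn, 38.4% for Omd, 30% for Aspn and 40% for Ecm2, below the median of 52.4% over 32851 promoters. It was 62.4% for Vcan and 64.4% for Bgn, above that median, and 51.2% for Fmod, close to it. GC boxes, held by 32.7% of all such windows, were found in Vcan 2 times, in Bgn 3 times with the last 2 overlapping, and in Ecm2 once, but not in Ogn, Omd, Aspn or Fmod. A TATAAA match, held by 12.4% of windows, occurred in Ogn and Aspn, upstream of the bases shown. The CCAAT box (33.8% of windows) was matched in Vcan and Aspn, the TEAD sequence (12.6%) in Ogn, and the AP-1 sequence (6.75%) in none of the 7. Dcn and Lum were not compared here. Such matches describe letters in a window and not bound sites, and Ecm2, with a ratio near 0, shares the low G and C content of its neighbours.

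Genes that build, bind or break down these proteoglycans were grouped by role into 7 lists with 133 measured genes outside the members. Of these, 36 passed below 0 and 41 above it, 57.9% in all against 49.6% of all genes, and 12 passed with the pool counted as 1 mouse, 5 below 0 and 7 above, where 2.11% and 2.98% of all genes passed. The other small leucine-rich proteoglycans had 2 of 5 (40%) above 0 (Omd and Aspn), against 25.8% of all genes, and 0 below, against 23.9%. Below 0 there were also 0 at unadjusted p under 0.05 (limma). Their median was 0.11, against −0.01 over all genes.

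In the hyaluronan system, to which versican binds, 7 of 16 genes (43.8%) passed above 0 and 2 (12.5%) below, with a median of 0.07. Over all genes 25.8% passed above 0 and 23.9% below. At unadjusted p under 0.05 (limma) the list had 7 genes above 0 and 5 below. Lyve1, the hyaluronan receptor of lymphatic endothelium, stood at 1.56 ± 0.41 (SD, n = 5; adjusted p = 0.000232, limma), and Ambp and Itih5, of the hyaluronan-linked inhibitor family, at 0.72 ± 0.24 and 0.63 ± 0.18. Has2, the main hyaluronan synthase, lay below 0 with Vcan, at −1.10 ± 0.78 (adjusted p = 0.0129, limma). Its ratios were −1.90, −0.99, −1.91, −0.44 and −0.26 in mice 1 to 5. Mice 1 and 3 were the lowest for Has2 and for Vcan alike, but Vcan varied far less, and the Has2 call was lost in the unmoderated test (adjusted p = 0.0739). With the pool as 1 mouse 0 genes of this list passed by limma, and 3 had an unadjusted p under 0.05. Among other core proteins, 4 of 17 (23.5%) passed below 0 and 6 (35.3%) above (median 0.01). Gpc3, a heparan sulphate proteoglycan of the cell surface, stood at 2.79, 2.72, 3.19, 1.86 and 0.66 in mice 1 to 5 (adjusted p = 0.00187, limma), lowest in mouse 5. Syndecan 2, Sdc2, stood at 1.18 ± 0.29 and the endothelial proteoglycan Esm1 at 0.83 ± 0.13. Below 0, Col18a1 stood at −0.41 ± 0.19, Hspg2 at −0.24 ± 0.18 and Cspg5 at −0.17 ± 0.11. Their adjusted p was 0.00484, 0.0307 and 0.0409 (limma). With the pool as 1 mouse only Esm1 of this list passed (adjusted p = 0.031, limma), and Gpc3 did not (adjusted p = 0.185).

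Of enzymes that make the sugar chains, 10 of 31 (32.3%) passed below 0 and 7 (22.6%) above (median −0.03). Over all genes 23.9% passed below 0 and 25.8% above. Chpf2, which extends chondroitin, stood at −0.97 ± 0.13 (SD, n = 5; adjusted p = 5.9e-05, limma), and the chondroitin synthase Chsy3 at −0.74 ± 0.37. They lay on the side of Vcan and Bgn and opposite to Dcn, and all of these members carry such chains. The chondroitin or dermatan sulphotransferases, singled out after their values were seen, did not share 1 side. Chst7 passed below 0 at −0.43 ± 0.07 (n = 5) and Chst13 above 0 at 0.23 ± 0.11 (n = 4; adjusted p = 0.000576 and 0.0291, limma). Chst11, Chst12, Chst14 and Chst15 did not pass, at −0.14, −0.05, 0.04 and 0.04. The enzymes of heparan sulphate lay on both sides. Ext2, a heparan sulphate polymerase, stood at 1.45 ± 0.25 (adjusted p = 5.94e-05, limma) and Hs2st1, a heparan sulphotransferase, at 0.73 ± 0.31. Further heparan sulphate enzymes were singled out after their values were seen. Ext1, which forms the polymerase with Ext2, passed below 0 at −0.41 ± 0.22 (n = 4; adjusted p = 0.0138, limma). So did the related Extl2 at −0.61 ± 0.19 and the epimerase Glce at −0.31 ± 0.07 (n = 5; adjusted p = 0.000818 and 0.00253, limma). Hs3st1 at 0.35 ± 0.30 and Hs6st3 at 0.19 ± 0.08 passed above 0 (n = 5; adjusted p = 0.0328 and 0.0214, limma). Hs6st1, Extl1 and Ndst2 did not pass. Only Chpf2 and Ext2 of this list passed with the pool as 1 mouse. Of genes for breakdown, 9 of 20 (45%) passed above 0 and 4 (20%) below (median 0.12). The protease Htra1, which cleaves decorin and other matrix proteins, stood at 1.09 ± 0.12 and the protease inhibitor Timp3 at 0.97 ± 0.17 (both also with the pool as 1 mouse), against the membrane protease Mmp14 at −1.01 ± 0.31. Of the 4 measured ADAMTS proteases of that list, singled out after their values were seen, Adamts8 passed above 0 at 0.43 ± 0.29 (adjusted p = 0.0138, limma; 0.397 with the pool as 1 mouse). The other 3 did not pass, with Adamts5 at 0.08 ± 0.54, Adamts9 at −0.05 ± 0.07 and Adamts15 at 0.16 ± 0.14.

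Collagens, the partners of the small proteoglycans, and collagen-processing genes had a median of −0.27. Of 24 measured, 12 (50%) passed below 0, against 23.9% of all genes, 3 (12.5%) passed above, against 25.8%, and 9 did not pass. With the pool as 1 mouse 4 passed below 0 and 2 above. Col5a3 stood at −1.63 ± 0.19, Col3a1 at −1.29 ± 0.15 and Col5a1 at −0.97 ± 0.13 (SD, n = 5; adjusted p from 2.46e-05 to 5.9e-05, limma). These are chains of collagens III and V, which form and nucleate thin fibrils. On the side of Ogn and Dcn were Pcolce2, an enhancer of procollagen processing, at 1.94 ± 0.36, the collagen chaperone Serpinh1 at 0.99 ± 0.35 and the prolyl hydroxylase P4ha2 at 0.76 ± 0.09. Col1a1, a chain of collagen I singled out after its values were seen, stood at 0.02 ± 0.50 and did not pass (adjusted p = 0.916, limma). Of 20 ligands and receptors of these proteoglycans, 4 (20%) passed below 0 and 7 (35%) above (median 0.05). With any 1 mouse left out 7 to 9 of the 20 passed, against 11 with all mice, and calls over all genes fell too. Ccn4, a matricellular protein that binds decorin and biglycan, stood at −1.17 ± 0.38 and tenascin C, Tnc, at −0.94 ± 0.27, while fibulin 1, Fbln1, a versican ligand, stood at 1.55 ± 0.43. Tgfb1, a TGF-beta that decorin binds, stood at 0.01 ± 0.11 (adjusted p = 0.924, limma). The other TGF-beta genes of the list were singled out after their values were seen. Tgfb2 passed above 0 at 0.18 ± 0.09 (n = 5, adjusted p = 0.0266, limma). The receptor gene Tgfbr2 passed below 0 at −0.64 ± 0.26 (n = 5, adjusted p = 0.00179, limma). Tgfb3 did not pass, at 0.02 ± 0.15. With the pool as 1 mouse 0 genes of that list passed by limma, and 6 had an unadjusted p under 0.05.

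**Figure D4:**
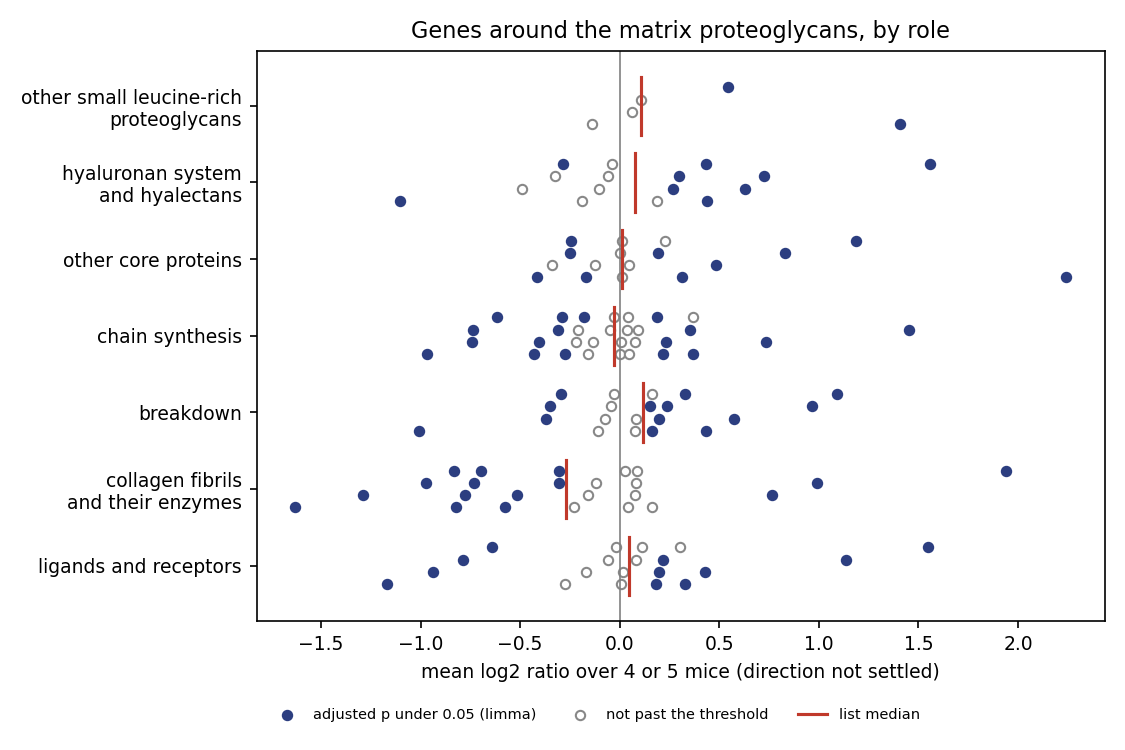
Mean log2 ratio over the 4 or 5 arrays with a ratio (horizontal axis) for each gene of the 7 lists; filled points passed adjusted p under 0.05 (limma), open points did not, and red bars are list medians. The medians of the other 6 lists lie between −0.03 and 0.12, and the collagen list has −0.27.

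Markers of cells and tissues were read beside the members, against 23.9% of all genes below 0 and 25.8% above (limma). Of 14 fibroblast markers, 4 (28.6%) passed below 0 and 5 (35.7%) above, and their median ratio was 0.26, 0.0045, 0.06, 0.22 and −0.01 in mice 1 to 5. Cartilage markers had 3 of 9 on each side (median 0.08), tendon markers 2 of 3 below 0 (median −0.37), and mesothelial markers 1 of 3 above 0 (median 0.03). Smooth muscle markers had 2 of 7 below 0 and 1 above. Skeletal muscle markers had 7 of 10 below 0 and differed most between mice, with medians of −4.16, −3.23, −0.23, −0.40 and −2.80, and cardiac markers had 4 of 6 above 0 and 1 below. Of 10 macrophage markers, 9 passed below 0 and the mannose receptor gene Mrc1 above it, at 0.58 ± 0.28 (n = 4). Of the others, 8 of 8 endothelial markers passed above 0, and 3 of 7 alveolar type 2 markers did. With the pool as 1 mouse, 5.09% of all genes passed. In that setting 2 of 10 macrophage, 3 of 8 endothelial and 2 of 7 alveolar type 2 markers passed. So did 1 of 14 fibroblast, 1 of 3 mesothelial and 1 of 6 cardiac markers. Of the cartilage, tendon, smooth muscle and skeletal muscle markers 0 passed by limma. In that order, 4, 2, 1 and 1 of them had an unadjusted p under 0.05. A ratio holds no level, so no marker can be read as present or absent, and the part of other tissue in the members' ratios was not tested. In whole lung, fewer cells of a type and less RNA per cell cannot be told apart.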

How the data were processed

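The authors deposited log ratios, taken here as log2, with values for 11350 to 12083 of 17280 features per array. For background correction, normalization, the numerator of the ratio and the log base, the sources used here give nothing. With natural logarithms every fold would be larger. Deposited array medians of 0.011 to 0.026 were set to 0, and 10702 features with ratios on at least 4 arrays were kept. Symbols came from the platform's annotation (1 symbol for 14722 features, several for 1 and none for 2557) and were updated through gene identifiers in RefSeq (GRCm38.p6), which held 14445 of them. Features of 1 symbol were averaged, giving 10081 genes and unnamed features.

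The test of each gene's mean against 0 used limma 3.58.1 under R 4.3.3 (intercept only, empirical Bayes, two-sided, Benjamini-Hochberg over all genes), and the procedure was tested on simulated data. The pool is 1 control sample, so how far control mice vary does not enter the test, and with no dye swap in the labels a dye bias of a gene does not cancel. One setting counts the pool as 1 mouse by adding its variance. With 5 arrays the smallest p of an exact sign-flip test is 0.0625, and the p-values printed rest on the model. The number of arrays limits the precision, since no intensities were used. Pearson's r across genes was 0.732 to 0.857 between arrays, which share the pool.

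Members and lists were chosen with earlier results of these data known. Genes marked as singled out after their values were seen lie outside the naming rule that follows. So do the genes flanking the clusters. None of these, nor Lum and Kera, entered the outlier check or the recomputed values of named genes. Named genes were the members, the other measured small leucine-rich proteoglycans, including those in the members' clusters, and Tgfb1. Each other list added, on each side, up to 3 genes with means farthest from 0 (past the threshold, all arrays on 1 side). Genes with features past the threshold on both sides were also named (0 were found in the lists), as were the 3 nearest profiles of each member. Alternatives were other centring, other array minimums, medians over features, symbols without updating, other tests and leaving out each mouse.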

Additional observations from a re-analysis of the deposited data

Results flagged for a closer look

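Among the 61 genes named by the rule, 5 had 1 mouse far from the rest (a gap to the nearest mouse above Dixon's 95% critical value), and chance gives about 1 in 20. None was a member. Epyc stood at 0.36 in mouse 3 against −0.02 to 0.05 in the other 3 mice with a ratio. Ext2 stood at 1.88 in mouse 4 against 1.27 to 1.41 elsewhere. Col3a1 stood at −1.02 in mouse 2 against −1.37 to −1.34. Ypel1 and Coro1a, which were named for their nearness to Fmod, stood at −0.66 and −0.63 in mouse 3, against −0.33 to −0.26 and −0.27 to −0.15 in the other mice.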

How the results depend on the processing

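The members kept their side of 0 in every setting run, and of their means only that of Vcan moved by more than its spread, to −1.85 with features on at least 3 arrays. With each mouse left out in turn the means ranged from −2.59 to −2.47 for Vcan, 2.76 to 2.91 for Ogn, 1.78 to 2.04 for Dcn, −0.82 to −0.63 for Bgn and −0.37 to −0.28 for Fmod. Counts of calls depended on how the pool is treated. With the pool as 1 control mouse, 513 of 5002 genes passed, and 12 of 77 in the lists: 1 of the other small leucine-rich proteoglycans, 0 of the hyaluronan system, 1 of other core proteins, 2 of chain synthesis, 2 of breakdown, 6 of collagens and 0 of ligands and receptors. With a difference of at least 1.2-fold required, 1847 passed, and 36 in the lists: 1, 4, 4, 7 and 3 in the first 5 lists in that order, 11 of collagens and 6 of ligands and receptors. The share of calls below 0 was 48.1%, and 41.5% with the pool as 1 mouse. In the unmoderated test 4 genes of the hyaluronan system and 1 of the other small leucine-rich proteoglycans passed. Among features on all 5 arrays 1 of those proteoglycans passed, and Aspn, with ratios on 4 arrays, was not tested there. Without each mouse in turn 4106 to 4616 genes passed, with 63 to 69 in the lists. Of the ligands and receptors 7 to 9 passed, against 11 with all mice. Of 668 recomputed values for 56 other named genes, 606 kept side and call and 61 lost the call. The value that changed side was Tgfb1, at −0.029 without mouse 4 and between −0.029 and 0.045 over the mice left out; the cause was not tested. No paired analysis was possible because the study has 1 group of mice against a common pool.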
